A study of Mus musculus with 4 samples.

Results

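The proteasome is the protease complex that degrades proteins tagged with ubiquitin. Its genes were compared between N-myc high and N-myc low haematopoietic stem cells (HSCs), 2 fractions sorted from mouse bone marrow. Members were all genes on the array whose symbol starts with Psm, followed by a letter from a to g and a number, and which were read by a probe set that names 1 gene only. This gave 47 of 18193 measured genes, read by 100 probe sets, and each gene was represented by its brightest probe set on average. The activator gene Psme2 shares its probe set with Psme2b and was not used here.

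All mice carried a transgene that fuses N-myc, a transcription factor of the MYC family, to the red fluorescent protein mCherry, and mCherry brightness defined the sort gates. The sorted cells were lineage-negative, Sca-1+, Kit+, CD48- and CD150+, and were lysed without culture or treatment. Each group, N-myc high and N-myc low, has 2 arrays, from samples labelled mouse 1 and mouse 2. The sources used here give no strain, age or sort threshold. All levels below are log2 intensities after RMA, which subtracts background, gives the arrays 1 common distribution and merges the probes of a set. A level therefore gives no absolute RNA amount, and levels of different genes are not ranked against each other. Where 2 values per group are given, the first is mouse 1 and the second mouse 2.

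Ubiquitin ligases such as HUWE1, the enzyme in the title of the series, mark proteins, and the proteasome takes them up. A barrel of stacked rings cuts the protein: alpha subunits (Psma) form the outer rings and the gate, beta subunits (Psmb) the inner rings with the active sites. A cap on the barrel has a base of ATPases (Psmc) that unfold the substrate and a lid (Psmd) that strips off ubiquitin. In blood cells, and after interferon, Psmb8, Psmb9 and Psmb10 can replace the standard active subunits, and this immunoproteasome supplies peptides for MHC class I.

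The sort gene Mycn itself was at 10.48 and 10.39 in N-myc high, against 9.44 and 9.65 in N-myc low, and the groups did not overlap. Its difference, N-myc high minus N-myc low throughout, was 0.89 with a standard error (SE) of 0.189 (limma adjusted p = 0.762). Huwe1 was at 9.84 and 9.76 in N-myc high, against 9.95 and 9.89 in N-myc low, a difference of -0.12 (SE 0.175). Of the stem cell gate genes used as a check, Kit (10.17 to 10.53) and Slamf1, which encodes CD150 (8.01 to 8.99), were bright on all 4 arrays, while Ly6a, which encodes Sca-1, was not analysed here. Procr, a surface receptor of stem cells, was at 9.18 and 9.27 in N-myc high, against 7.99 and 8.08 in N-myc low. The neutrophil genes S100a8 and S100a9 also read above 13 on every array. Across arrays, all genes correlated at r = 0.972 to 0.980 and the 47 members at r = 0.959 to 0.980, as a description across genes. Both arrays of mouse 1 held the female RNA Xist (11.38 in N-myc high, 11.10 in N-myc low) together with the Y-linked Eif2s3y (8.53 and 8.43), so whether they hold 1 animal was not determined. Both arrays of mouse 2 were low in Xist (3.84 in N-myc high, 3.70 in N-myc low) and higher in Eif2s3y (9.40 and 9.67), so the mice differed in these genes alike in both groups. Nothing in the labels says more on how the animals were handled. Each p value rests on the spread within the groups of these 4 arrays, which limma moderates toward a spread pooled over all genes.

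The promoters of 6 members are shown first, because the results below turn on these genes. Psmd13 and Psmd14 had the smallest p of all members and opposite signs, Psmc2 came next, Psmb5 and Psmb6 carry standard active sites, and Psmb9 shares its promoter with the peptide transporter gene Tap1. Each line gives the 250 bases before the start site in RefSeq (build GRCm38.p6), 5′ to 3′ on the gene's strand. Capitals mark matches to the motifs searched. The stretches lie at chr7:140882144-140882393 (Psmd13, plus strand), chr2:61711444-61711693 (Psmd14, plus), chr5:21786497-21786746 (Psmc2, plus, the second of its 2 start sites), chr14:54617996-54618245 (Psmb5, minus), chr11:70525107-70525356 (Psmb6, plus) and chr17:34187331-34187580 (Psmb9, minus).
Psmd13: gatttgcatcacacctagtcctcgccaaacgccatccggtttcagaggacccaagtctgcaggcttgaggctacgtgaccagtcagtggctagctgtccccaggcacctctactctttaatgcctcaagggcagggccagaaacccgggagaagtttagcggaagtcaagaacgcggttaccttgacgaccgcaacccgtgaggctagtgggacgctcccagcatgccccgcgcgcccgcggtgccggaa
Psmd14: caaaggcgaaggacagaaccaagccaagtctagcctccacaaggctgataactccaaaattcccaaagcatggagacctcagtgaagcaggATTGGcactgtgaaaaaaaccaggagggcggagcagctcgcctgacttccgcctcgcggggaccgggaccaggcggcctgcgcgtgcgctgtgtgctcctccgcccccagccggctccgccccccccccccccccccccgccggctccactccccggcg
Psmc2: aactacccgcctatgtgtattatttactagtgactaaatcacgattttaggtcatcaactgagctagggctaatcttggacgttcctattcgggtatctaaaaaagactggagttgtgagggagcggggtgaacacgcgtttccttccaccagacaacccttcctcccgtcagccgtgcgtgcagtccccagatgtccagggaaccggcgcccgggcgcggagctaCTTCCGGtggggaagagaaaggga
Psmb5: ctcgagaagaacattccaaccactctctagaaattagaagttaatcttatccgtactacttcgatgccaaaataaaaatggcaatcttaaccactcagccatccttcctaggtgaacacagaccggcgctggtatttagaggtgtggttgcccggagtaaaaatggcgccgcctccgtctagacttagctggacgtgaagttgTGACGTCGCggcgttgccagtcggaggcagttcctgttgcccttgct
Psmb6: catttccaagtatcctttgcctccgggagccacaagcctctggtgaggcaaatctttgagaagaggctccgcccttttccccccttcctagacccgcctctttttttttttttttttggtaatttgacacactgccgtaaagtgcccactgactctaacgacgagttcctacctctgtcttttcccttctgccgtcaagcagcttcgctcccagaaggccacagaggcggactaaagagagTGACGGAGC
Psmb9: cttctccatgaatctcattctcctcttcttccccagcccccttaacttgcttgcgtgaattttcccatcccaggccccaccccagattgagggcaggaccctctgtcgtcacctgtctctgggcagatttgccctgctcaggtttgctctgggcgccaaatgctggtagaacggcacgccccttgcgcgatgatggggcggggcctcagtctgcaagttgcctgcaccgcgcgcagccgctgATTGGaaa

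The capitals in Psmc2 are an ETS motif (CCGGAAG), those in Psmb5 and Psmb6 an antioxidant response element (TGACNNNGC), and those in Psmd14 and Psmb9 a CCAAT box (CCAAT), each searched on both strands, so that CTTCCGG and ATTGG are matches on the other strand. Psmd13 held none of the 6 motifs in this window. At the first start site of Psmc2, not shown, the window held an ETS motif and a CCAAT box. RefSeq windows were found for 39 of the 47 members, and the other 8 were Psmb1, Psmb2, Psmb7, Psmc3, Psmd3, Psmd7, Psma8 and Psmg2. The ETS motif stood in 12 of the 39 members (30.8%), against 11.8% of the 14452 measured genes with a window and 6.91% of all 32851 windows. The antioxidant response element stood in 5 members (12.8%, against 13.5% of measured genes), the CCAAT box in 14 (35.9%, against 39.4%) and the E-box CACGTG, the motif known for MYC proteins, in 4 (10.3%, against 8.73%). Of the interferon-linked motifs, the interferon-stimulated response element stood in 3 members (7.69%, against 3.13%) and the gamma-activated site (TTCNNNGAA) in 2 (5.13%, against 7.42%). No matches of different motifs overlapped in these windows. A match is a string of letters, not a binding site.

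Between the fractions, the 12 members with the ETS motif had a median difference of -0.10, against 0.027 in the 27 matched members without it, and 4 were higher and 8 lower in N-myc high. For the 4 members with the E-box, Psma4, Psmb10, Psmd9 and Psme3, the median was -0.042, against -0.034 without it. Members with the CCAAT box had a median of -0.10, against 0.045 without it, and those with the antioxidant response element 0.045, against -0.049. The 3 members with the interferon-stimulated response element, Psmb3, Psmd4 and Psmd9, had a median of -0.11. The 2 with the gamma-activated site, Psmb8 and Psmg1, had a median of -0.16. All were lower in N-myc high by the probe set used, but Psmd4 and Psmd9 each had another probe set of opposite sign. Psmb9, Psmb10 and Psme1 held neither of these motifs. These medians are descriptions and were not tested.

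No proteasome gene passed the adjusted test between the N-myc fractions, and most differences were small. The median difference of the 47 members was -0.087, with -0.052 in mouse 1 and -0.014 in mouse 2, beside -0.033 over all genes. By the mean, 21 members were higher and 26 lower in N-myc high, so 44.7% were higher, against 45.3% of all genes. Among the 5954 genes at least as bright as the dimmest member outside the tissue-restricted core, 50.3% were higher and the median difference was 0.0027. Centring each array on its median gave 17 members higher and 30 lower, and leaving out N-myc low mouse 1 gave 25 higher and 22 lower, so the balance of signs turned with that array. An absolute difference over 0.5 was seen for 4 members, Psmd13, Psmd14, Psma8 and Psmc2, which is 8.51% of them, against 16.6% of all genes. The median absolute difference was 0.15 in the members and 0.20 over all genes.

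In limma, 0 of the 47 members passed an adjusted p under 0.05, and 0 of all genes did (0%). At an unadjusted p under 0.05 there were 2 members, Psmd14 (higher in N-myc high, where 3.53% of all genes were called) and Psmd13 (lower in N-myc high, where 2.78% were). That is 1 of 47 each way, close to the background. The 1148 genes at this p were 55.9% higher, and 44.8% higher after each array was centred on its median. With the mouse as a replicate block, 2 members had an unadjusted p under 0.05 in the lower direction in place of 1, Psmc2 being added. The 95% interval of the difference stayed within a 2-fold change either way for 39 members (83.0%), against 63.3% of all genes. For the other 8 members the interval reached past a 2-fold change.

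For 9 members the N-myc high pair was wholly above the N-myc low pair, a pattern shown by 15.6% of all genes, and for 8 it was wholly below, as for 20.8% of all genes. In both mice the sign was positive for 9 members, against 23.2% of all genes. It was negative in both for 17 (36.2%, against 29.7% of all genes), and 21 members had opposite signs in the mice. Of the 5954 genes at least as bright as the dimmest member outside the tissue-restricted core, 1591 were negative in both mice. The median level of those genes was 8.78, against 9.73 in the members. The 2 arrays of a group also differed: N-myc low mouse 1 had the highest of the 4 values for 24 members, and N-myc low mouse 2 the lowest for 18. Among all genes, those arrays were highest for 27.7% and lowest for 25.4%. N-myc high mouse 1 and mouse 2 were highest for 11 and 7 members and lowest for 7 and 16.

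**Figure D1:**
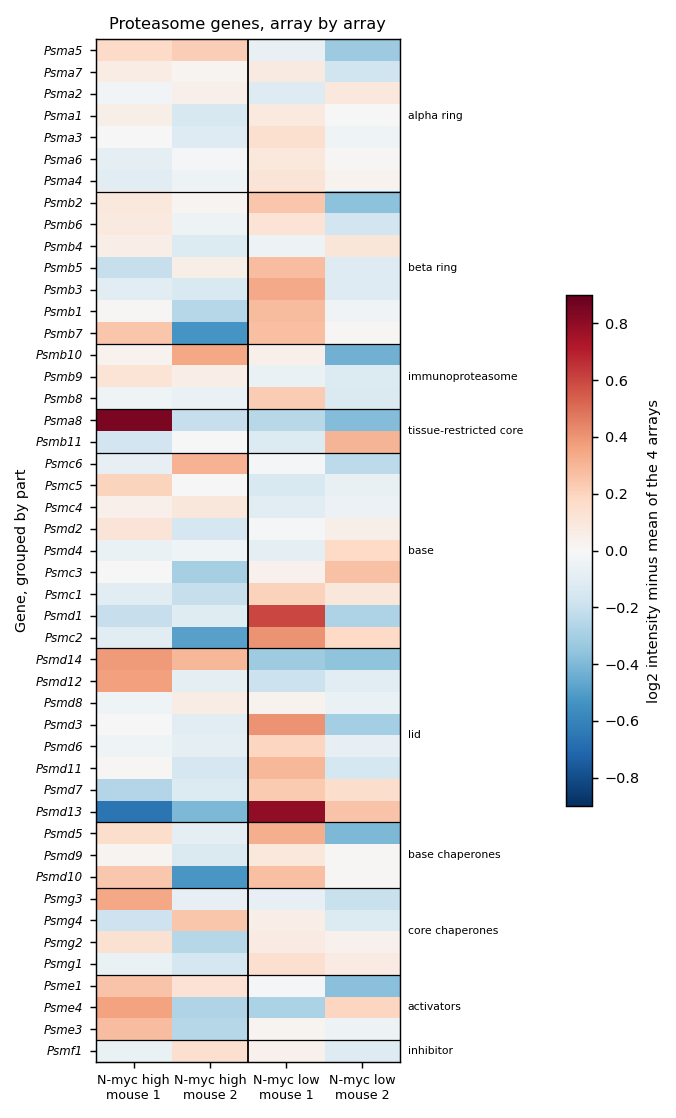
Level of each of the 47 proteasome genes on each array, as log2 intensity minus the gene's mean over the 4 arrays (colour scale), with N-myc high left and N-myc low right of the black line and genes grouped by part. N-myc low mouse 1 holds the highest value for 24 genes, against 27.7% of all genes. In 17 rows, Psmd14 and Psmd13 among them, the N-myc groups are apart. N-myc high is wholly above in 9 (15.6% of all genes) and wholly below in 8 (20.8% of all genes).

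**Figure D2:**
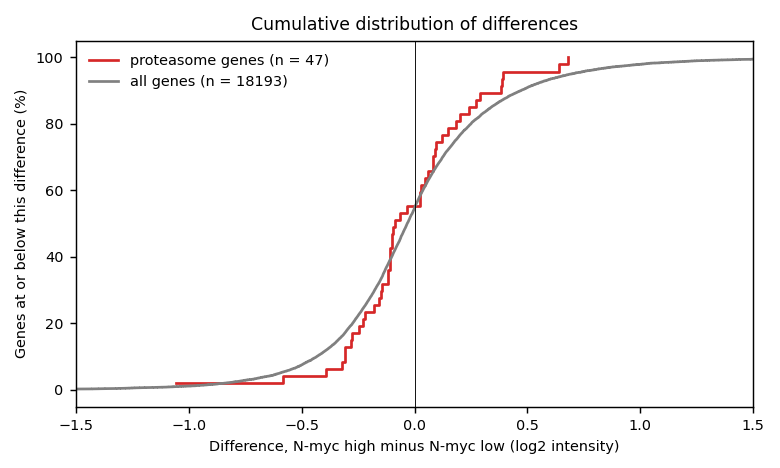
Cumulative share of genes (%) at or below a difference between N-myc high and N-myc low (log2 intensity), for the 47 proteasome genes and for all 18193 genes; values beyond 1.5 either way are outside the axis. The curve of the proteasome genes runs close to that of all genes, with medians of -0.087 and -0.033.

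In the outer rings, 3 of the 7 alpha subunit genes were higher and 4 lower, with a median difference of -0.087. Psma5 had the largest difference of the ring. It was at 9.90 and 9.95 in N-myc high, against 9.67 and 9.40 in N-myc low, so the N-myc high pair was the higher one. Its difference was 0.39 (SE 0.194, limma adjusted p = 0.797). A second bright probe set of the gene gave 0.054, with -0.21 in mouse 1 and 0.32 in mouse 2. The third, dimmer probe set gave -0.39. Psma4 had the lowest difference, at 10.04 and 10.10 in N-myc high, against 10.26 and 10.18 in N-myc low, which is -0.15 with an SE of 0.175. Its groups did not overlap, and those of Psma6 (-0.11) did not either. The other genes were Psma1 (-0.087), Psma2 (0.023), Psma3 (-0.11) and Psma7 (0.095), all with overlapping groups.

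In the inner rings, 2 of the 7 standard beta subunit genes were higher and 5 lower. In none of them were the groups apart in the probe set used. The median difference was -0.16, with -0.16 in mouse 1 and -0.024 in mouse 2, and it was -0.36 without N-myc low mouse 2. Leaving out N-myc low mouse 1 gave -0.0014, and leaving out N-myc high mouse 2 turned its sign (0.025). The subunits without active sites, Psmb1, Psmb2, Psmb3 and Psmb4, had differences of -0.25, 0.12, -0.23 and -0.064. A second bright probe set of Psmb4 was at 10.72 and 10.67 in N-myc high, against 10.49 and 10.19 in N-myc low. That is a difference of 0.36 with the groups apart, so the sign of Psmb4 depended on the probe set. Psmb2, the highest of the ring, was at 10.79 and 10.72 in N-myc high, against 10.95 and 10.33 in N-myc low. Its N-myc low arrays stood on either side of the N-myc high pair.

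The standard active subunits can be set beside the immunoproteasome subunits that take their place. Psmb5, the chymotrypsin-like subunit, was at 8.99 and 9.25 in N-myc high, against 9.47 and 9.08 in N-myc low. Its counterpart Psmb8 was at 10.63 and 10.60 in N-myc high, against 10.90 and 10.53 in N-myc low. The differences were -0.16 for Psmb5 (95% interval -0.78 to 0.46) and -0.099 for Psmb8 (-0.66 to 0.46), and for both genes the groups overlapped.

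Psmb6, the caspase-like subunit, was at 10.22 and 10.09 in N-myc high, against 10.26 and 9.96 in N-myc low. Psmb9, which replaces it, was at 10.39 and 10.33 in N-myc high, against 10.21 and 10.15 in N-myc low. Psmb6 overlapped between the groups, with a difference of 0.045 (95% interval -0.49 to 0.58). Psmb9 did not overlap: its difference was 0.18 (-0.28 to 0.65, limma adjusted p = 0.867). Mouse 1 gave 0.19 and mouse 2 0.18.

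Psmb7, the trypsin-like subunit, was at 10.30 and 9.52 in N-myc high, against 10.32 and 10.06 in N-myc low, where N-myc high mouse 2 stood low. Psmb10, its immunoproteasome counterpart, was at 10.74 and 11.06 in N-myc high, against 10.75 and 10.28 in N-myc low. The difference of Psmb7 was -0.28 (95% interval -1.14 to 0.58) and that of Psmb10 0.38 (-0.30 to 1.07). The value for Psmb10 came from mouse 2 (0.78), with -0.011 in mouse 1. Over the 3 immunoproteasome genes the median difference was 0.18, with -0.011 in mouse 1 and 0.18 in mouse 2, and all 3 intervals include 0.

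The base holds the ATPases Psmc1 to Psmc6 and the scaffold and receptor subunits Psmd1, Psmd2 and Psmd4. Of these 9 genes 3 were higher and 6 lower, with a median difference of -0.096. That median was -0.17 with the mean of each gene's probe sets and without N-myc high mouse 1. It turned to 0.0028 when N-myc low mouse 2 was left out. Psmc2, an ATPase of the ring, was at 9.38 and 8.99 in N-myc high, against 9.88 and 9.66 in N-myc low, and the N-myc high arrays lay below the N-myc low arrays. Its difference was -0.58 (SE 0.229, limma unadjusted p = 0.0562, adjusted p = 0.779). Its other probe sets had the same sign, with -0.29 and -0.69. With the replicate block the unadjusted p was 0.0485 in limma and the adjusted p 0.781.

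The ATPases had mixed signs. Psmc1 (-0.31) and Psmc3 (-0.31) shared the sign of Psmc2 in both mice, while Psmc4 (0.15) and Psmc5 (0.20) had the opposite sign in both. Psmc6, the highest of the base, was at 9.07 and 9.46 in N-myc high, against 9.13 and 8.91 in N-myc low, a difference of 0.24 that was -0.062 in mouse 1 and 0.55 in mouse 2. Psmd2, the scaffold that binds ubiquitin shuttles, gave -0.034, and the ubiquitin receptor Psmd4 gave -0.096. Psmd1, the other large scaffold, gave -0.32, of which -0.81 was in mouse 1 and 0.17 in mouse 2.

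The lid held both members with an unadjusted limma p under 0.05, and they had opposite signs. Of all genes, 6.31% reached this p in either direction, and 2 of the 47 members is close to that share. Psmd14, the metalloprotease that cuts ubiquitin chains off the substrate, was at 10.73 and 10.65 in N-myc high, against 10.03 and 9.99 in N-myc low. Both N-myc high arrays were above both N-myc low arrays, and the mice gave nearly equal differences of 0.70 and 0.66. Group means were 10.69 ± 0.059 for N-myc high, against 10.01 ± 0.031 for N-myc low (SD, n = 2 each). The difference of 0.68 had an SE of 0.175 (limma unadjusted p = 0.0138, adjusted p = 0.762). Psmd14 was read by 1 probe set, so no second one can be set beside it. Leaving out N-myc high mouse 1 or 2, or N-myc low mouse 2, gave limma unadjusted p = 0.0691, 0.0512 and 0.0501, with differences of 0.64 to 0.72.

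Psmd13, a structural subunit of the lid, was at 7.51 and 7.76 in N-myc high, against 8.97 and 8.42 in N-myc low. Both N-myc high arrays were below both N-myc low arrays, with -1.46 in mouse 1 and -0.66 in mouse 2. Group means were 7.64 ± 0.18 for N-myc high, against 8.69 ± 0.39 for N-myc low (SD, n = 2 each). The difference of -1.06, 2.08-fold lower in N-myc high, had an SE of 0.264 (limma unadjusted p = 0.0127, adjusted p = 0.762). A second probe set had 7.03 and 7.29 in N-myc high, against 8.28 and 7.52 in N-myc low, a difference of -0.74 in which the groups again did not overlap. The 2 dimmer probe sets gave -0.47, from mouse 2, and 0.18. The mean over all 4 probe sets was -0.52, and without N-myc high mouse 1 the limma unadjusted p was 0.0735.

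The other 6 lid genes ranged from -0.39 to 0.29. Psmd7, the partner that Psmd14 binds in the lid, was at 8.16 and 8.30 in N-myc high, against 8.66 and 8.58 in N-myc low, without overlap, and its difference of -0.39 had the opposite sign to that of Psmd14 (SE 0.18, limma adjusted p = 0.793). Psmd12 gave 0.29, from mouse 1 (0.56) more than mouse 2 (0.019), without overlap. Psmd3, Psmd6, Psmd8 and Psmd11, lid scaffold subunits, gave -0.10, -0.12, 0.027 and -0.14, all with overlapping groups. Over the 8 lid genes among the members the median was -0.11, with -0.26 in mouse 1 and 0.014 in mouse 2. Its sign turned with the mean of each gene's probe sets (0.031) and without N-myc low mouse 1 (0.082), and it was -0.31 without N-myc low mouse 2.

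**Figure D3:**
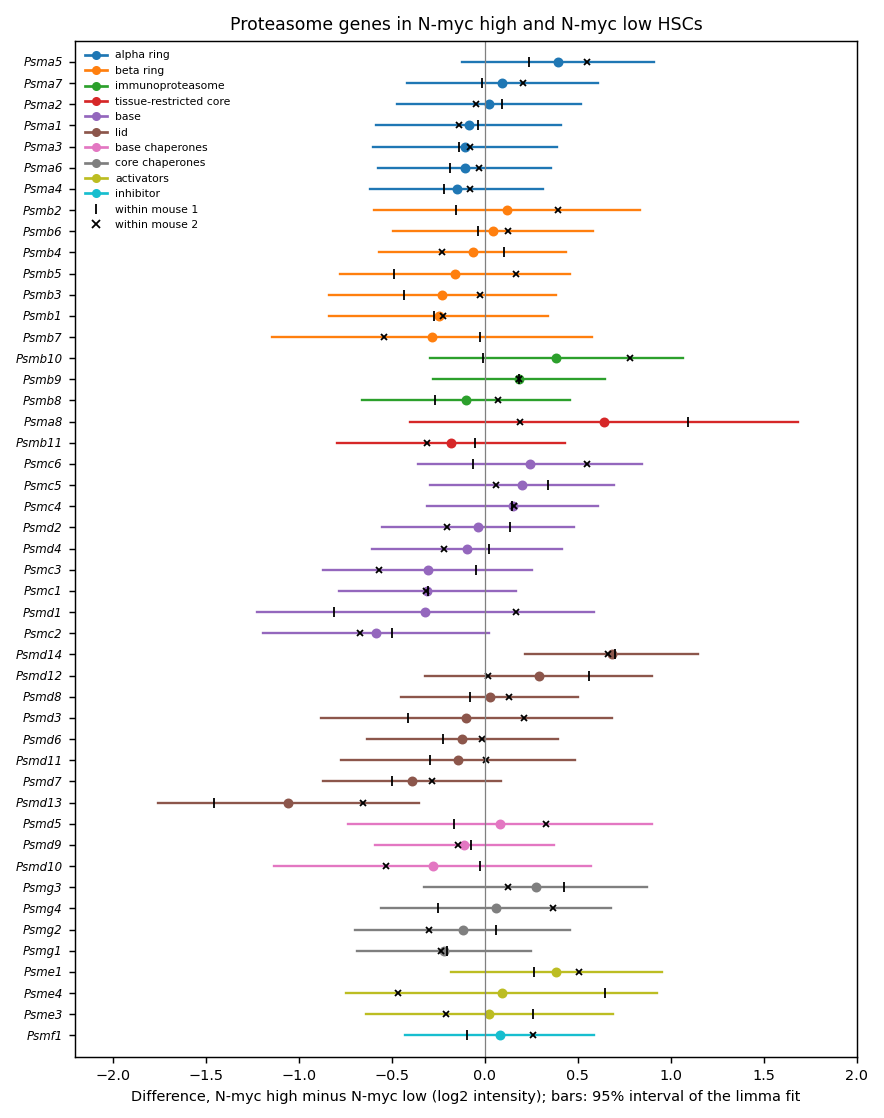
Difference between N-myc high and N-myc low (log2 intensity, dots) with its 95% interval from limma (bars) for each of the 47 genes, coloured by part, with the differences within mouse 1 and within mouse 2 as black marks. The intervals of Psmd14 and Psmd13 alone exclude 0, on opposite sides.

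**Figure D4:**
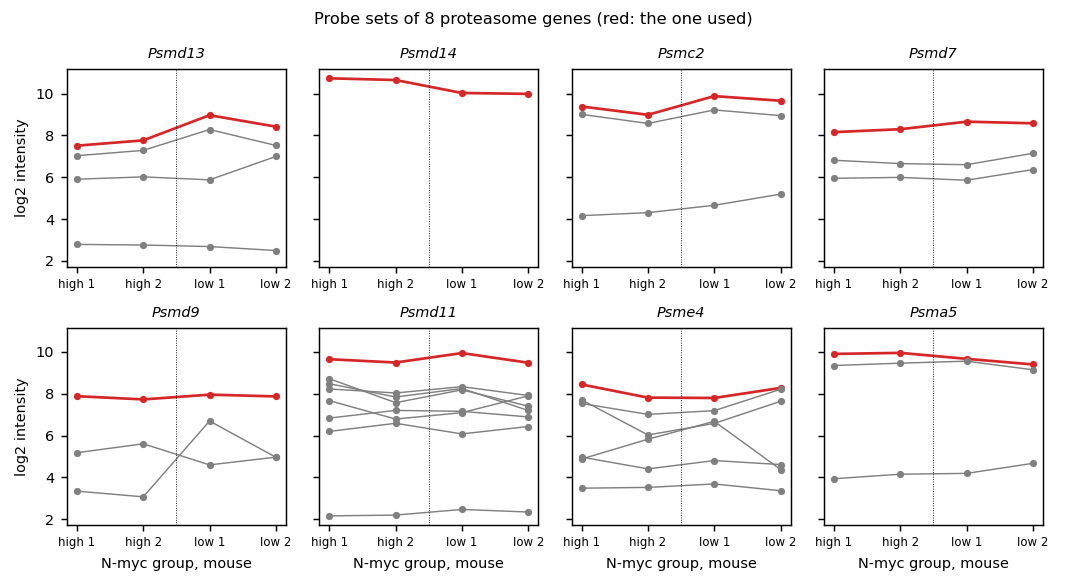
Log2 intensity of every single-gene probe set of 8 proteasome genes on the 4 arrays (N-myc high left, N-myc low right of the dotted line); red marks the probe set that stands for the gene and grey the others. The 3 probe sets of Psmc2 share a direction, while those of Psmd9, Psmd11 and Psme4 do not.

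Assembly factors had both signs. Of the chaperones that build the core, Psmg1 and Psmg2 act as one pair and Psmg3 and Psmg4 as another. Psmg3 was at 9.08 and 8.66 in N-myc high, against 8.65 and 8.53 in N-myc low and had the highest difference of the 4, 0.27, with both N-myc high arrays just above. Psmg1 was at 8.41 and 8.32 in N-myc high, against 8.61 and 8.55 in N-myc low and had the lowest, -0.22, without overlap, and its partner Psmg2 gave -0.12 and Psmg4 0.06. Of the chaperones that build the base, Psmd5 was at 8.95 and 8.71 in N-myc high, against 9.12 and 8.39 in N-myc low, a difference of 0.082. Psmd10, also known as the oncoprotein gankyrin, was at 7.84 and 7.07 in N-myc high, against 7.86 and 7.60 in N-myc low and gave -0.28, while Psmd9 gave -0.11. All 3 overlapped between the groups.

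Activators open the gate of the barrel in place of the cap. Psme1, a subunit of the interferon-inducible activator PA28, was at 11.42 and 11.30 in N-myc high, against 11.16 and 10.80 in N-myc low. The groups did not overlap, and the difference of 0.39 (SE 0.214, limma adjusted p = 0.806) was 0.26 in mouse 1 and 0.51 in mouse 2. Psme3, the nuclear member of that family, was at 10.73 and 10.19 in N-myc high, against 10.47 and 10.40 in N-myc low, a difference of 0.024. Psme4, the large activator PA200, gave 0.091, with 0.65 in mouse 1 and -0.46 in mouse 2, and the sign was reversed in its 5 other probe sets. Psmf1, which inhibits the core in vitro, was at 7.83 and 8.03 in N-myc high, against 7.93 and 7.78 in N-myc low, a difference of 0.082. The median of the 3 activator genes was 0.091, and it was -0.050 with the mean of each gene's probe sets, -0.22 without N-myc high mouse 1. Leaving out N-myc high mouse 2 gave 0.40.

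Psma8 and Psmb11 are tissue-restricted core subunits. Psma8, known from testis, was at 7.70 and 6.65 in N-myc high, against 6.61 and 6.46 in N-myc low. The value of N-myc high mouse 1 stood apart, and the difference of 0.64 (SE 0.393) was 1.09 in mouse 1 and 0.19 in mouse 2. Psmb11, known from the thymic cortex, was at 3.65 and 3.82 in N-myc high, against 3.70 and 4.13 in N-myc low, a difference of -0.18. No detection calls were used here, so these values have no measured background beside them.

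Probe sets of 1 gene often disagreed. Of the 26 members with more than 1 probe set, 18 had another probe set of opposite sign and 8 had one sign throughout, Psmc2, Psmd7 and Psmb1 among them. Of the 53 probe sets not used, 26 had the opposite sign to the one used.

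Other genes of the pathway, outside the symbol rule, also gave 0 of 17 measured genes at an unadjusted limma p under 0.05, where 6.31% of all genes were called in either direction. Their median difference was -0.06, and the lowest p was 0.166, that of Pomp, the chaperone that matures the beta rings. Pomp was at 11.13 and 11.03 in N-myc high, against 11.63 and 11.25 in N-myc low, with no overlap and a difference of -0.36. Nfe2l1, the factor that raises proteasome genes when the proteasome is blocked, was at 8.25 and 7.65 in N-myc high, against 7.98 and 7.51 in N-myc low, with overlap.

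Genes that act with the immunoproteasome in MHC class I presentation had a higher median difference than the members. Of 9 measured genes, 8 were higher and 1 lower, with a median of 0.34, and 0 had an unadjusted limma p under 0.05. Both N-myc high arrays were above both N-myc low arrays for 5 (against 15.6% of all genes) and below them for 1. The 5 were Nlrc5, the transactivator of MHC class I (0.39), Erap1, which trims peptides (0.45), the class I gene H2-D1 (0.34), Tapbp, which holds MHC class I at the peptide transporter (0.32), and the interferon factor Irf1 (0.36). They were named after their values were seen. H2-D1 was read by 9 probe sets and Erap1 and Tapbp by 2 each, of which only the brightest on average was used. The adjusted p values of the 5 in limma were 0.793 to 0.822. Among the members, Psme1 (0.39) and Psmb9 (0.18) had the same sign and no overlap. Psmb10 (0.38) and Psmb8 (-0.099), which had the opposite sign, overlapped between the groups. H2-K1, another class I gene of the list, differed by 0.12 with overlapping groups.

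Psmb9 and Tap1 run in opposite directions from start sites 226 bases apart on chromosome 17, so the Psmb9 stretch shown above is for 225 bases also the promoter of Tap1. Their values did not go together by mouse. Tap1, a subunit of the peptide transporter, was at 10.30 and 9.55 in N-myc high, against 9.38 and 9.77 in N-myc low, with 0.91 in mouse 1 and -0.22 in mouse 2. Tap2, its partner subunit, was at 6.54 and 6.86 in N-myc high, against 7.19 and 6.93 in N-myc low, a difference of -0.36. B2m, the light chain of MHC class I, differed by 0.0025.

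Some markers of antigen-presenting cells, which carry immunoproteasomes, had the same 2 groups apart. None passed an adjusted p under 0.05 in limma (C1qb 0.671, Cd74 0.733, H2-Aa 0.744). The summed level of the 6 dendritic cell and MHC class II markers (log2 of the sum of linear intensities) was 11.26 and 11.08 in N-myc high, against 9.96 and 9.75 in N-myc low. For the 6 macrophage markers it was 9.28 and 9.34 in N-myc high, against 8.67 and 8.09 in N-myc low. The N-myc high pair was wholly above for 4 of the 6 MHC class II and dendritic cell markers, namely the MHC class II genes H2-Aa, H2-Eb1 and H2-Ab1 and Cd74, their invariant chain, while Siglech (-0.046) and Itgax (0.015) overlapped. It was also wholly above for 2 of the 6 macrophage markers, C1qb (2.66) and Csf1r (0.27). Each of these 2 was read by 3 probe sets, of which only the brightest on average was used. C1qa, C1qc, Cd68 (-0.097) and Adgre1 (-0.14) overlapped. Of all genes, 15.6% had the N-myc high pair wholly above. Without C1qb, a sum added after the data were seen, the macrophage level was 8.32 and 8.18 in N-myc high, against 8.47 and 7.79 in N-myc low, and the groups overlapped. The defining genes Itgax (3.95 to 4.48) and Adgre1 (2.96 to 3.68) were dim on all arrays. All 5 neutrophil markers had both N-myc high arrays below, a pattern shown by 20.8% of all genes. Their sum was 14.75 and 14.63 in N-myc high, against 14.90 and 14.90 in N-myc low. The sum of the 4 measured B cell markers overlapped, at 9.23 and 8.45 in N-myc high, against 7.94 and 10.12 in N-myc low. For 4 T and NK cell markers it was 8.59 and 8.66 in N-myc high, against 9.20 and 9.49 in N-myc low. Of these, 1 was wholly above and 1, Nkg7 (-0.77), wholly below. For 3 erythroid markers it was 8.75 and 8.42 in N-myc high, against 9.38 and 9.22 in N-myc low, with 2 wholly below. The part of other cells in the values of Psmb8, Psmb9, Psmb10 and Psme1 was not tested. In such bulk samples fewer cells of a type and less RNA per cell cannot be told apart.

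**Figure D5:**
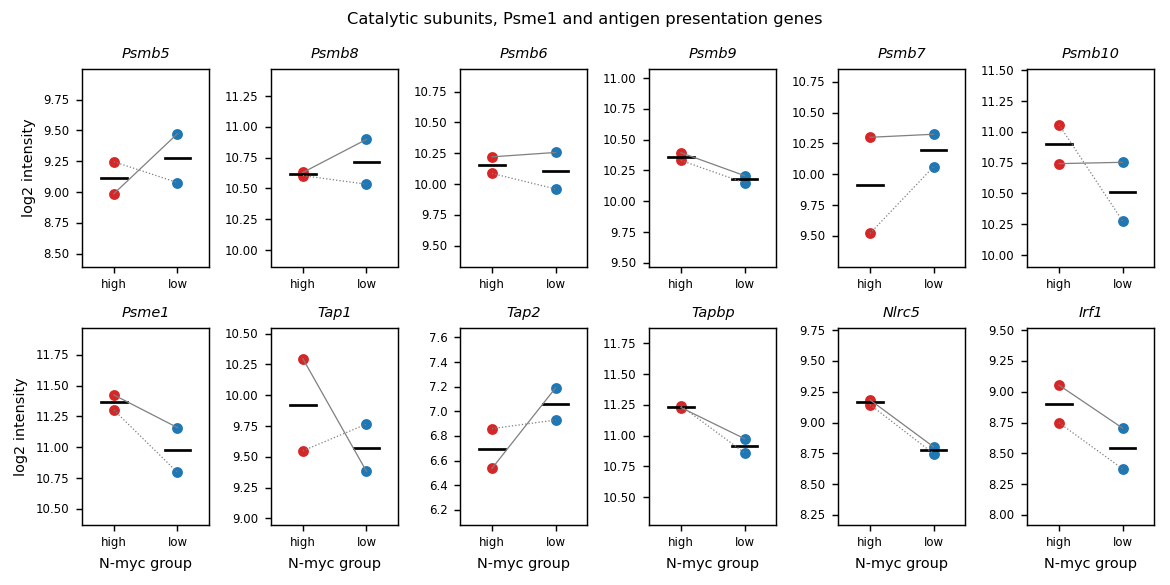
Log2 intensity on each array (dots; red N-myc high, blue N-myc low), group means (black bars) and lines that join the arrays of mouse 1 (solid) and mouse 2 (dotted), for the active subunits, Psme1 and 5 genes of antigen presentation. Each panel spans the same range around its own mean; Psmb9, Psme1, Tapbp, Nlrc5 and Irf1 have both N-myc high arrays above both N-myc low arrays, and Tap2 has them below.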

How the data were processed

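The 4 Affymetrix mouse arrays were deposited as log2 intensity per probe set. RMA is named in the submitters' processing notes, beside affy and limma, with no versions. Total RNA (5 ng) was amplified before labelling, per the labels' protocols. The sources used here name no chip definition or filter. Of 45101 probe sets, 34945 named 1 gene in the platform annotation, 932 with several names were not used and 64 control probe sets were left out. Groups were compared with limma 3.58.1 in R 4.3.3 (lmFit, eBayes, default prior) over 18193 genes with Benjamini-Hochberg adjustment, two-sided, without a filter on dim genes. The number of arrays limits the precision: an exact permutation test of 2 against 2 cannot go below p = 0.333, so limma's pooled spread carries each p.

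Array numbers name the mouse, which is the source of the pairing. The correlation, over all genes, between the deviations of arrays of 1 mouse was 0.0492. The main model held no mouse term, and the mouse as a block was an alternative. All 4 values were given for members with an unadjusted p under 0.05, for Psmb5 to Psmb10 and for the extremes of each group of subunits; other genes given in full were chosen after their values were seen. Members, gene lists, motifs and tests were chosen with earlier results of these data known. RefSeq sequences came from GRCm38.p6.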

Additional observations from a re-analysis of the deposited data

How the results depend on the processing

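No member passed an adjusted p under 0.05 in limma in any of the 10 alternatives tried, and the lowest adjusted p of a member was 0.585. The sign of 22 of the 47 members, Psmd13, Psmd14 and Psmc2 among them, held in all alternatives that gave them 1 value. Much of this was fixed in advance. Leaving out dim genes, the replicate block and the intensity trend cannot change a sign here. Leaving out 1 array cannot change it for a gene whose groups are apart. For Psmd14, with 1 probe set and its groups apart, centring alone could have changed the sign. Leaving out 1 array changed the sign of 4 to 11 members, centring that of 4 and averaging probe sets that of 8. The lower count of 1 at an unadjusted p became 3 with the mean of probe sets and with every probe set, and 2 after centring, under an intensity trend and in the fit with the mouse as replicate block. Leaving out an array gave 0 to 2 lower and 0 to 1 higher, with 0 of either without N-myc high mouse 1. The replicate block changed no other call. Over all genes 1148 became 2210 with every probe set and 606 without the dimmer genes, where more and fewer features were tested, and 795 to 1512 with an array left out. The median of the members ranged from -0.13 to 0.039 with an array left out. That of the base was -0.17 with the mean of probe sets, -0.068 over every probe set, -0.15 after centring and -0.17 to 0.0028 with an array left out. The base chaperones gave -0.28 with the mean of probe sets and -0.28 to 0.10 with an array left out, the activators -0.22 to 0.40, the beta ring -0.36 to 0.025 and the lid -0.31 to 0.082. Psma8, alone of its pair above the dim limit, gave 0.64. Where no feature count explains a change, the cause was not tested. Without detection calls, the dim members have no background to set a limit.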

Other observations

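A dim probe set of Psmd9, a chaperone of the base, had the largest difference of all 100 member probe sets. It was at 3.35 and 3.07 in N-myc high, against 6.70 and 4.96 in N-myc low, a difference of -2.62. Another dim probe set of the gene was at 5.18 and 5.61 in N-myc high, against 4.60 and 4.97 in N-myc low, a difference of 0.61 in the opposite direction. The brightest probe set, which stood for the gene, gave -0.11. Both dim probe sets kept their groups apart, and no direction can be read for Psmd9 as a gene. The choice to name them was made after their values were seen.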
